A study of Drosophila melanogaster with 12 samples.

Results

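The genes described here encode fat body proteins for storage, for egg yolk or for secretion into the blood. Fbp1 among them encodes a fat body receptor for storage proteins. RNA came from heads, and the tissue that gave each signal was not tested. The set comprised Lsp2, Lsp1beta, Lsp1gamma, Yp1, Yp2, Yp3, Fbp1, Tsf1 and fit, and a probe set was taken where the platform annotation gave it exactly 1 of these symbols. This found 1 probe set each for 7 of the 9 genes, of 10844 genes so named. They are 7 of the 13966 non-control probe sets on the array. Lsp1beta and Lsp1gamma were named by no probe set in the annotation used here and are not described.

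RNA came from adult heads of Drosophila melanogaster of the genotype y w; tim01, and every group shared this genotype. tim01 is a loss-of-function allele of the circadian clock gene timeless, and flies that carry it have no working clock. Flies spent 3 days in cycles of 12 h of light and 12 h of darkness and were then frozen every 4 h, and each sample pooled about 100 to 200 heads separated with sieves. The 4 groups were LD light (ZT2, ZT6 and ZT10 of a further light/dark day), LD dark (ZT14, ZT18 and ZT22 of that day), DD subjective day (CT2, CT6 and CT10 of the next day, spent in constant darkness) and DD subjective night (CT14, CT18 and CT22). ZT and CT count hours from lights-on and from the hour at which lights would have come on. The sources used here give neither the sex nor the age of the flies, and wild-type flies were not analysed here. There was 1 array per time, so a group joins 3 different hours, and the spread within it mixes sampling error with any change from hour to hour. The DD day always followed the LD day, so lighting, day of collection and age cannot be told apart.

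The fat body of insects does the work that liver and adipose tissue do in mammals, and a sheet of it lies in the adult head around the brain. Hexamerins such as the larval serum proteins are stored there and used as a source of amino acids. Yolk proteins are made by fat body and ovarian follicle cells of adult females, under the control of the sex determination gene dsx, and are taken up by the growing egg. Transferrin carries iron in the blood, and fit is a secreted protein with female-biased expression in the head that is known as a signal of protein feeding.

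All levels below are RMA values and all differences are log2 differences, so that 1 unit is a doubling. Array medians lay between 4.0 and 4.1, and lower quartiles between 2.88 and 2.97. The probe sets of 7 measured photoreceptor genes had a mean between 9.14 and 9.39 on every array. Midgut, male reproductive and thorax muscle markers were highest in DD subjective night. Over 21 measured midgut genes the mean lay between 7.07 and 7.34 in DD subjective night, against 4.91 to 6.17 in DD subjective day. Over 25 male germline and accessory gland genes it lay between 4.80 and 5.02 in DD subjective night and between 3.54 and 4.36 in DD subjective day. A body-tissue score, the mean standardised value of 59 midgut, male reproductive and thorax muscle genes, was -0.59 ± 0.23 in LD light, -0.11 ± 0.61 in LD dark, -0.50 ± 0.66 in DD subjective day and 1.19 ± 0.23 in DD subjective night (SD, n = 3 arrays each). Fewer cells of a type and less RNA per cell cannot be told apart in such samples.

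**Figure D1:**
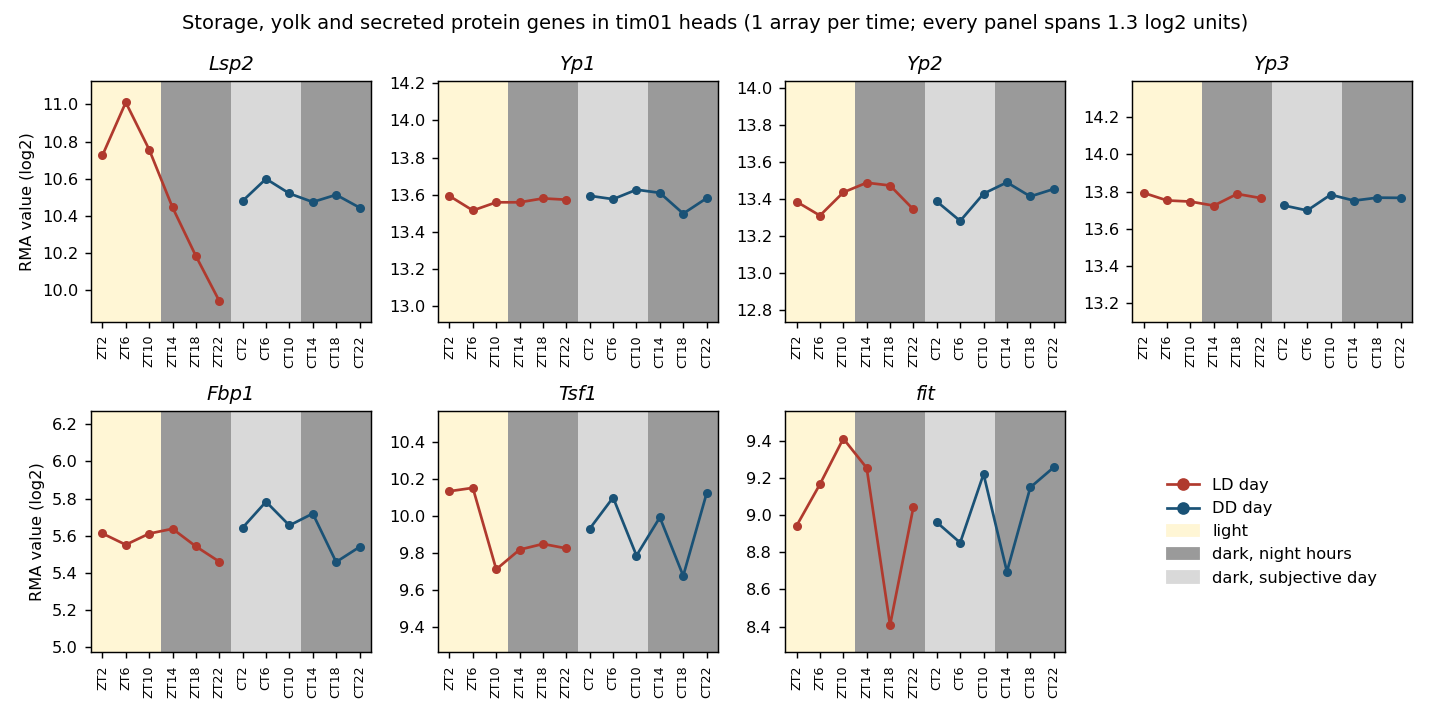
RMA values (log2, vertical axis) of the 7 genes on each of the 12 arrays in order of collection (horizontal axis, ZT in LD and CT in DD, in h); each point is 1 array, lines join the arrays of a day, and every panel spans the same number of log2 units. Lsp2 declines from 11.01 at ZT6 to 9.94 at ZT22 and stays between 10.44 and 10.60 in DD, while the yolk protein genes are nearly level on both days.

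Lsp2 (CG6806), a hexamerin gene, was the only member called in any comparison, for its change over the light/dark day. Its values in LD light were 10.73 at ZT2, 11.01 at ZT6 and 10.76 at ZT10, and in LD dark they were 10.45 at ZT14, 10.18 at ZT18 and 9.94 at ZT22. All 3 lit arrays lay above all 3 dark arrays, and the values declined at each step after ZT6. Of all probe sets, 12.9% did not overlap between LD light and LD dark, in either direction. In DD the values were 10.48, 10.60 and 10.52 at CT2, CT6 and CT10, and 10.47, 10.51 and 10.44 at CT14, CT18 and CT22. Subjective day and subjective night overlapped there, and all 6 DD arrays lay between the lit LD arrays and the array at ZT22. The range over the day was 1.07 in LD, which is 2.1-fold on the linear scale, and 0.16 in DD, which is 1.11-fold.

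A daily curve with a period of 24 h, built from cosine and sine terms for each day, called Lsp2 in LD, with an amplitude from mean to peak of 0.48 (SE 0.0637), a fitted peak at hour 7.24 and limma adjusted p = 0.0312. It was the only member of 7 called there, and 0.0644% of all 13966 probe sets were called. The call was lost in several other settings: adjusted p was 0.0632 after quantile normalization over the 12 arrays, 0.0889 with the body-tissue score as a covariate and 0.313 from the LD arrays alone. Leaving out 1 array kept the call without ZT2, ZT10 or ZT22 and lost it without any of the other 9, with adjusted p = 0.255 without ZT6, 0.0825 without ZT18 and 0.0529 to 0.0818 without ZT14 or any single DD array. Leaving out a DD array did not alter the LD curve, whose amplitude stayed at 0.48. It altered only the shared estimate of the spread and its degrees of freedom. In DD the amplitude of Lsp2 was 0.05 (SE 0.0637, adjusted p = 0.921). None of the members was called in the DD fit, where 0.78% of probe sets were. The difference between the 2 curves had an amplitude of 0.44 (SE 0.0901), an unadjusted p of 0.00124 and a limma adjusted p of 0.286. For this difference 0% of probe sets were called.

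As group means with their SD over 3 arrays, Lsp2 stood at 10.83 ± 0.16 during LD light and at 10.19 ± 0.25 during LD dark. The difference of 0.64 (SE 0.106, 95% confidence interval 0.42 to 0.87) is 1.56-fold and missed the threshold of 0.05, with limma adjusted p = 0.0597. Of all probe sets, 0.0286% were called in this contrast, and Lsp2 had the 5th smallest p. Without ZT14, the LD dark array with the highest Lsp2 value, the difference was 0.77 and passed (limma adjusted p = 0.00794). ZT14 was the only 1 of the 12 arrays whose removal had this effect. Over the 12 fits without 1 array the difference was 0.52 to 0.77 and the limma adjusted p reached 0.398. In DD the difference between subjective day and subjective night was 0.06 (SE 0.106, interval -0.17 to 0.28). The LD difference minus the DD difference was 0.59 (SE 0.149, interval 0.27 to 0.90), with an unadjusted p of 0.00137 and a limma adjusted p of 0.354. No probe set was called for that difference of differences, 0% of those tested.

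Set against the same hours of the LD day, Lsp2 values in DD were lower by day and higher by night, and neither difference passed the threshold. DD subjective day averaged 10.53 ± 0.06 and LD light 10.83 ± 0.16, and they differed by -0.30 (SE 0.106, 0.813-fold, limma adjusted p = 0.515). With a linear trend over the hours of collection in the model this difference turned to 0.05. DD subjective night averaged 10.48 ± 0.03 and LD dark 10.19 ± 0.25, a difference of 0.29 (SE 0.106, 1.22-fold, limma adjusted p = 0.342). Over the whole of each day, DD minus LD was -0.01 (SE 0.0747).

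Body tissue and photoreceptor markers also varied over the LD day. The body-tissue score was highest in LD at ZT22, at 0.42, where Lsp2 was lowest, and its correlation with Lsp2 over the 12 arrays was r = -0.33 (permutation p = 0.297, adjusted over the 7 genes 0.52; Spearman rho = -0.35, p = 0.264). Within days r was -0.72 in LD and -0.44 in DD. The mean of the photoreceptor list was 9.28 to 9.37 in LD light and 9.14 to 9.24 in LD dark. That list includes trpl, the gene found below to be most like Lsp2, so the list and trpl are not separate observations. The part of these markers in the Lsp2 values was not tested beyond the covariate fit given above.

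**Figure D2:**
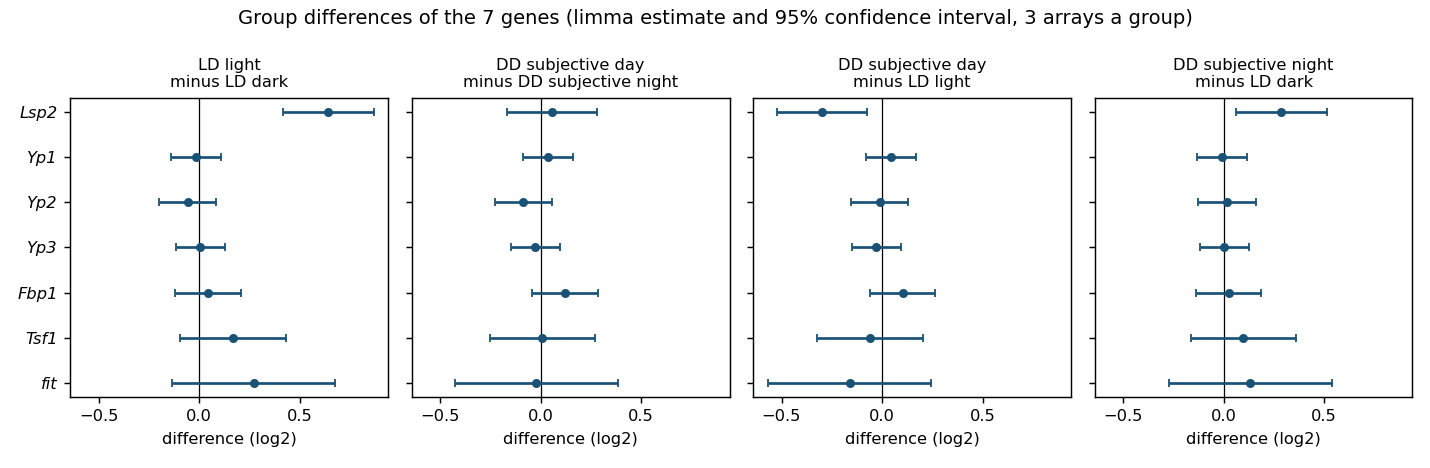
Differences in RMA value (log2, horizontal axis) of the 7 genes (vertical axis) in 4 contrasts of 3 arrays against 3; points are limma estimates and bars their 95% confidence intervals. The Lsp2 interval lies off 0 in every panel except that of DD subjective day minus DD subjective night, and those of the other 6 genes include 0 in all panels.

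The genes with the profile most like that of Lsp2 were sought among 429 named genes with an SD over the arrays of at least 0.2. The highest Pearson correlation over the 12 arrays was that of trpl, a light-activated cation channel gene of photoreceptors, at r = 0.75 (0.99 within LD and 0.64 within DD). Its values in LD were 9.59, 9.90 and 9.60 in light and 9.47, 9.27 and 9.05 in darkness. In DD they were 9.33, 9.48 and 9.23 in subjective day and 9.11, 8.97 and 9.08 in subjective night. Both genes peaked at ZT6 and were lowest in LD at ZT22, but in DD trpl was below its LD minimum on 1 array, CT18, and Lsp2 on none. CG5455 followed at r = 0.67 (0.98 within LD and 0.51 within DD), then the zinc finger gene Sp1 at 0.59, the glucosidase gene tobi at 0.58 and CG8620 at 0.56. The correlations of tobi and CG8620 with Lsp2 were positive in LD, at 0.70 and 0.66, and negative in DD, at -0.61 and -0.60. These correlations were picked as the highest of many, share the same 12 arrays and carry no test.

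**Figure D3:**
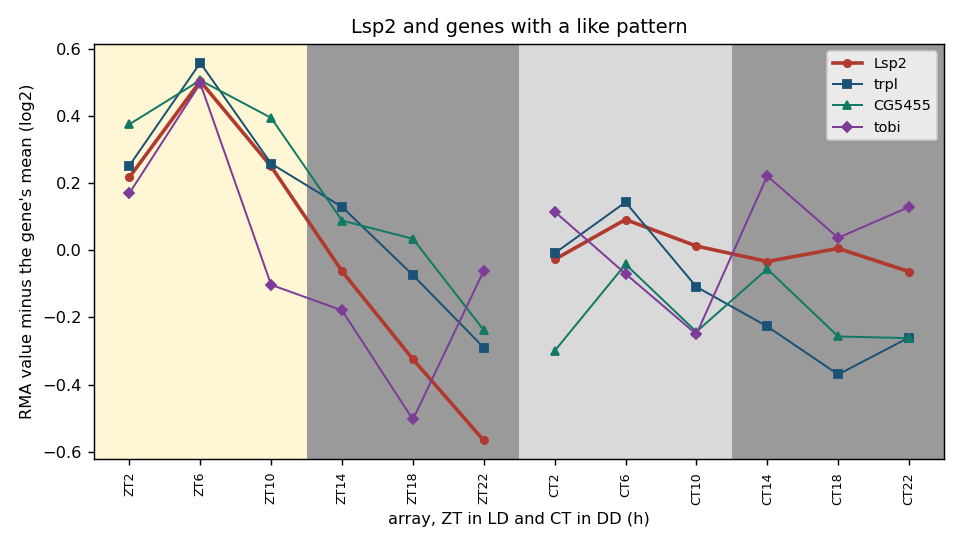
RMA value of Lsp2, trpl, CG5455 and tobi minus each gene's mean (log2, vertical axis) on the 12 arrays in order of collection (horizontal axis). All 4 genes are highest at ZT6; in DD trpl lies below its LD minimum at CT18 and tobi is highest at CT14.

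Fbp1 (CG17285) encodes the fat body receptor through which larvae take hexamerins back up from the blood. Its signal was modest, with a mean of 5.60 over the 12 arrays, above 80.8% of probe sets. The values were 5.61, 5.55 and 5.61 in LD light and 5.64, 5.54 and 5.46 in LD dark. In DD they were 5.64, 5.78 and 5.66 in subjective day and 5.72, 5.46 and 5.54 in subjective night. The 3 subjective day values lay above the 3 LD light values, with means of 5.69 ± 0.08 and 5.59 ± 0.03 (SD, n = 3 arrays each). Of all probe sets, 13.6% did not overlap in this contrast, in either direction. The Fbp1 difference of 0.10 (SE 0.0764) had a limma adjusted p of 0.784. DD minus LD over whole days was 0.06 (SE 0.054, limma adjusted p = 0.712). The difference between subjective day and subjective night was 0.12 (SE 0.0764, limma adjusted p = 0.71). It became -0.01 with a linear trend over the hours of collection in the model and -0.03 with the body-tissue score as a covariate. The correlation of Fbp1 with that score was r = -0.41 over the 12 arrays (permutation p = 0.18, adjusted over the 7 genes 0.52; Spearman rho = -0.44, p = 0.154), and r was -0.96 within LD and -0.58 within DD. With the mean of each day removed it was -0.66 (permutation p = 0.0191, adjusted p = 0.134). Fbp1 and Lsp2, receptor and hexamerin, correlated at r = 0.32 (permutation p = 0.316, adjusted over 21 pairs 0.73; rho = 0.31, p = 0.331). The gene most like Fbp1, of 430 searched, was the octopamine receptor gene Octbeta2R, with r = 0.82 (0.93 in LD and 0.85 in DD), followed by Pgant2 at 0.57, CG31036 at 0.54, cu at 0.53 and CG6938 at 0.49.

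The yolk protein genes Yp1 (CG2985), Yp2 (CG2979) and Yp3 (CG11129) gave the brightest signals of the array. Yp3 had the highest value of all probe sets on each of the 12 arrays, Yp1 the next and Yp2 the one after. Yp3 lay between 13.70 and 13.79, Yp1 between 13.50 and 13.63 and Yp2 between 13.28 and 13.49. This order is one of probe signals and does not rank the amounts of the transcripts. The following probe set had a mean of 13.2.

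These bright signals hardly varied. Over the 12 arrays the SD was 0.0283 for Yp3, 0.0365 for Yp1 and 0.0681 for Yp2, against a median SD of 0.102 over all probe sets. From the lowest SD, Yp3 ranked 4th and Yp1 ranked 25th of 13966, and Yp2 ranked 1431st. Among the 25 brightest probe sets the SD ranged from 0.027 to 0.158 with a median of 0.0773, so Yp2 was near the middle of that range and Yp3 and Yp1 near its lower end. Whether the signal is compressed at the top of the scale, or held level there by the normalization in RMA, was not tested.

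**Figure D4:**
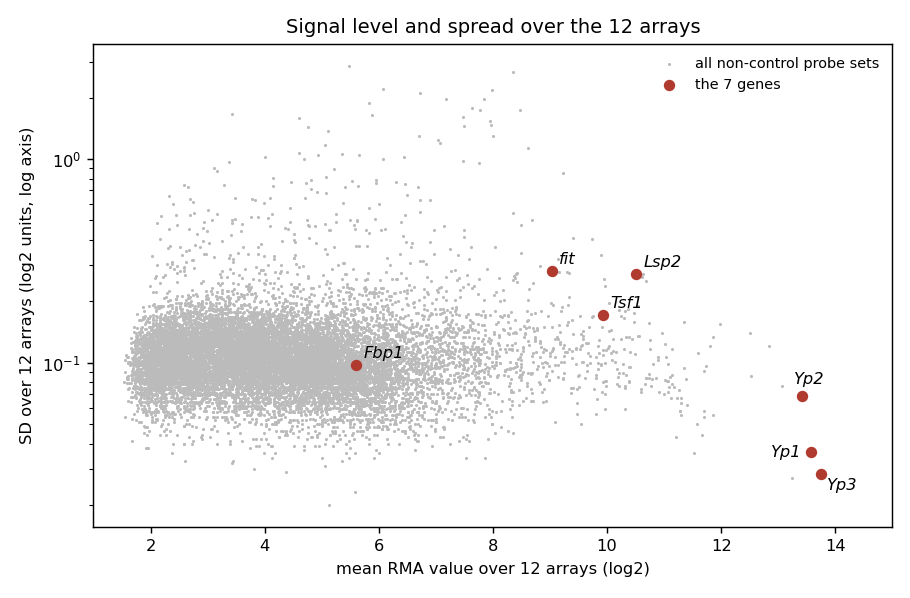
SD over the 12 arrays (log2 units, vertical log axis) against mean RMA value (log2, horizontal axis) of all 13966 non-control probe sets (grey) and the 7 genes (red). Yp1, Yp2 and Yp3 lie at the right end with SDs of 0.0365, 0.0681 and 0.0283; Lsp2 and fit lie above 98.1% and 98.3% of probe sets in SD.

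Yp1 averaged 13.56 ± 0.04 in LD light, 13.57 ± 0.01 in LD dark, 13.60 ± 0.03 in DD subjective day and 13.56 ± 0.06 in DD subjective night (SD, n = 3 arrays each). Yp3 averaged 13.76 ± 0.03, 13.76 ± 0.03, 13.74 ± 0.04 and 13.76 ± 0.01 in the same groups. In none of the 6 contrasts did either gene differ by more than its limma standard error. That error is drawn towards the spread typical of all probe sets. Yp2 had 13.39, 13.28 and 13.43 in DD subjective day, against 13.49, 13.41 and 13.45 in DD subjective night, a difference of -0.09 (SE 0.0668, interval -0.23 to 0.06, limma adjusted p = 0.781). In LD light it had 13.39, 13.31 and 13.44, against 13.49, 13.47 and 13.34 in LD dark, and the phases overlapped on both days. The harmonic amplitude of the 3 genes was 0.02 to 0.08 in LD and 0.03 to 0.07 in DD. For Yp1 and Yp3, a difference in RMA value of more than 0.17 in either direction lay outside the 95% interval of all 4 group contrasts. Their ranks were the same on every array, and quantile normalization makes values of fixed rank identical. The intervals therefore do not bound a change in transcript amount. How far the normalization in RMA held these values level was not tested.

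Yp1 and Yp2 are neighbours in the RefSeq annotation, with 0 annotated genes between them. Their values correlated at r = 0.27 over the 12 arrays (permutation p = 0.395, adjusted over 21 pairs 0.73; Spearman rho = 0.24, p = 0.444). Yp1 with Yp3 gave r = 0.13 (permutation p = 0.691; rho = 0.21, p = 0.508) and Yp2 with Yp3 r = 0.32 (permutation p = 0.307; rho = 0.07, p = 0.835). With the 2 arrays left out on which the first gene was farthest from its median, these r values were 0.09, 0.39 and -0.18. No pair of the 7 genes passed after adjustment over the 21 pairs, where the smallest adjusted p was 0.73. The pair with the largest r in size, Yp3 and Fbp1, had r = -0.56 (permutation p = 0.059; rho = -0.48, p = 0.122), and -0.23 without the 2 arrays farthest from the Yp3 median.

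The genes most like each yolk protein gene over the 12 arrays were sought among 430 with an SD of at least 0.2. Their correlations carry no test, and the search could not return the yolk protein genes themselves or other steady genes. Nearest to Yp2 were CtsL3 at r = 0.79, the calcium pump gene SERCA at 0.74, CG16743 at 0.74, the cuticle protein gene Cpr49Ae at 0.73 and CG4000 at 0.69, and these r values were positive within both days. Nearest to Yp3 were the spectraplakin gene shot at 0.72, CG10513 at 0.71, eIF4G2 at 0.63, CG10631 at 0.61 and unc79 at 0.60. Nearest to Yp1 were Pgant2 at 0.63, CG31036 and svp at 0.60, caz at 0.59 and Rbfox1 at 0.55. The r of Pgant2 with Yp1 was -0.50 within LD and 0.79 within DD, so that likeness was not shared by the days. No gene among the 5 nearest was common to all 3 yolk protein genes.

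Markers of ovary, the other source of yolk protein transcripts, had list means between 4.39 and 4.57 on all arrays. In LD, those of the lit arrays all lay above those of the dark arrays, and in DD the phases overlapped. Of single probe sets, 12.9% did not overlap in LD light against LD dark. The part of ovary in the yolk protein values was not tested. The 18 measured genes of yolk uptake, eggshell and oogenesis had a mean of 4.49 to 4.57 in LD light, 4.39 to 4.46 in LD dark, 4.43 to 4.49 in DD subjective day and 4.40 to 4.56 in DD subjective night, and 4 of them had means under each array's lower quartile. None was called in any contrast or harmonic. Of 16 regulators of sex determination and yolk genes, all measured, 0 were called in any comparison. The smallest p among them in DD subjective day minus DD subjective night was that of Sxl, the switch gene of female development, with -0.32 (SE 0.109, limma adjusted p = 0.269). Of 19 measured ecdysone and juvenile hormone genes, which include regulators of yolk synthesis, 0 were called.

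Genes with sex-biased expression in the head were represented by 4 of 10 names, and none was called. Cyp4d21, a male-biased cytochrome P450 gene, had 6.02, 6.05 and 6.28 in DD subjective night, against 6.38, 6.47 and 6.68 in LD dark, without overlap. Of all probe sets, 14.1% did not overlap in this contrast. The Cyp4d21 difference was -0.39 (SE 0.114, limma adjusted p = 0.204). Obp99b, an odorant-binding protein gene with male-biased expression in the head fat body, differed by -0.28 (SE 0.0827, adjusted p = 0.215) in the same contrast. The male germline and accessory gland list lay the other way on these arrays, with a mean of 4.80 to 5.02 in DD subjective night against 3.59 to 4.54 in LD dark, and its part in these values was not tested. The other measured sex-biased genes, sxe2 and msl-2, overlapped in this contrast. In DD subjective night sxe2 had 6.96, 6.76 and 6.82, against 6.85, 6.92 and 6.88 in LD dark. For msl-2 the values were 4.69, 4.78 and 4.64 against 4.76, 4.70 and 4.70.

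Tsf1 (CG6186) encodes the iron carrier transferrin. Its values were 10.13, 10.15 and 9.71 in LD light and 9.82, 9.85 and 9.83 in LD dark, so the array at ZT10 lay below all the dark ones. In DD they were 9.93, 10.10 and 9.79 in subjective day and 9.99, 9.68 and 10.12 in subjective night. The DD phases overlapped fully and neighbouring times differed by up to 0.44. The LD difference of light minus dark was 0.17 (SE 0.123, interval -0.10 to 0.43, limma adjusted p = 0.811). Its harmonic amplitude was 0.18 (SE 0.0794, adjusted p = 0.648) in LD and 0.11 in DD. Of 12 other measured iron genes, among them the ferritin heavy chain gene Fer1HCH, 0 were called in any comparison. The gene most like Tsf1 was CG34227, with r = 0.90 over the 12 arrays (0.95 in LD and 0.92 in DD) and 7.81, 7.95 and 7.42 in LD light against 7.66, 7.58 and 7.54 in LD dark. CG8329 followed at 0.85, the Y-box protein gene yps at 0.81, the capsid-like gene Arc1 at 0.78 and Ance-5 at 0.77.

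fit (CG17820) ranged over 1.01, or 2.01-fold, with no repeated day-night order. In LD light it had 8.94, 9.17 and 9.41, and in LD dark 9.26, 8.41 and 9.05. In DD it had 8.96, 8.85 and 9.22 in subjective day and 8.70, 9.15 and 9.26 in subjective night. The lowest LD array was ZT18 and the lowest DD array CT14, and the phases overlapped on both days. LD light averaged 9.17 ± 0.24 and LD dark 8.90 ± 0.44 (SD, n = 3 arrays each). The difference, 0.27 (SE 0.19, limma adjusted p = 0.791), was 0.02 without ZT18. The LD difference minus the DD difference was 0.29 (SE 0.269, limma adjusted p = 0.875). The LD harmonic had an amplitude of 0.33 (SE 0.121) with a peak at hour 8.45 (unadjusted p = 0.0547, limma adjusted p = 0.57).

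The values of fit correlated positively with the difference between the 3′ and 5′ probe sets of the GAPDH control, a customary sign of RNA integrity and labelling. That difference was largest at ZT14, at 2.58, and smallest at CT14, at 2.10. Its correlation with fit was r = 0.60 over the 12 arrays (permutation p = 0.0422, adjusted over the 7 genes 0.295; Spearman rho = 0.68, p = 0.0183, adjusted 0.128). It was 0.75 within LD, 0.88 within DD, 0.53 without the 2 farthest arrays and 0.78 with the mean of each day removed (permutation p = 0.00298, adjusted 0.0209). Of the tested versions only this last one passed after adjustment. Its permutations shuffled all 12 arrays freely, not within each day. The other 6 genes had r between -0.29 and 0.08 over the 12 arrays; within days the largest in size was that of Yp3 in LD, at -0.92, with 0.43 in DD. The part of RNA quality in the fit values was not tested.

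**Figure D5:**
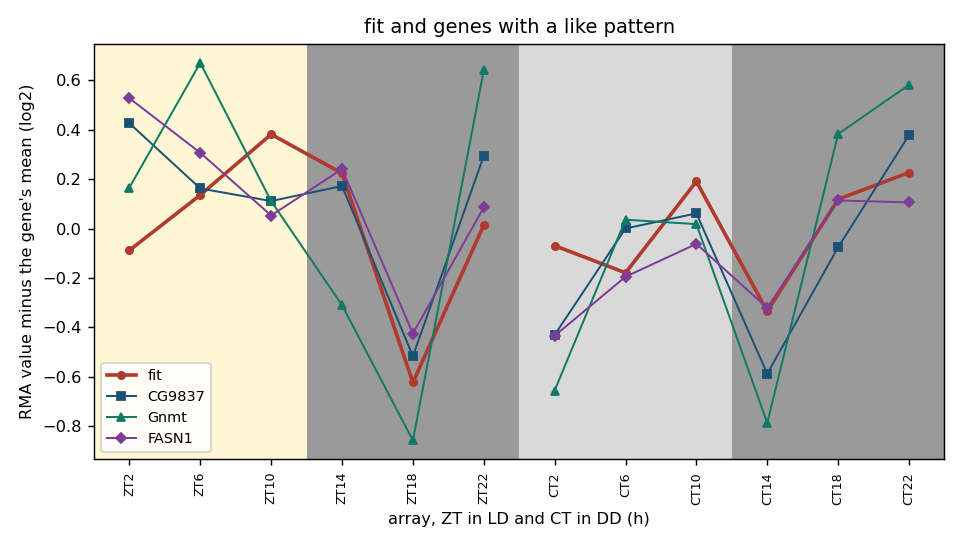
RMA value of fit, CG9837, Gnmt and FASN1 minus each gene's mean (log2, vertical axis) on the 12 arrays in order of collection (horizontal axis). All 4 genes are lowest in LD at ZT18, and fit, CG9837 and Gnmt are lowest in DD at CT14.

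Among the genes most like fit were several of metabolism. Gnmt, a glycine methyltransferase gene, followed CG9837 (r = 0.67) at r = 0.64, ahead of the S-adenosylmethionine synthetase gene Sam-S at 0.61, the fatty acid synthase gene FASN1 at 0.58 and the chitin-binding protein gene Gasp at 0.57. Within DD the r of Gnmt, Sam-S and FASN1 was 0.78, 0.76 and 0.76. Gnmt had 8.53, 9.04 and 8.48 in LD light, against 8.06, 7.51 and 9.01 in LD dark. In DD it had 7.71, 8.40 and 8.38 in subjective day and 7.58, 8.75 and 8.95 in subjective night. As with fit, the low arrays were ZT18 and CT14, and Gnmt was also low at CT2. These are again the highest correlations of 429 and carry no test.

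Over the 7 genes, limma called 0 in LD light minus LD dark and 0 in DD subjective day minus DD subjective night, where 1.39% of probe sets were called. It called 0 in DD subjective day minus LD light (0% of probe sets), 0 in DD subjective night minus LD dark (0.2%) and 0 in DD minus LD (0.0215%). At an unadjusted p under 0.05 there was 1 member, Lsp2, in LD light minus LD dark, in both contrasts between the days at matched hours and in the difference of differences, and 0 in the other contrasts. Of all probe sets, such a p was found for 7.12% in LD light minus LD dark, 7.51% in DD subjective day minus LD light, 9.7% in DD subjective night minus LD dark and 7.34% in the difference of differences. With 7 genes, a count of 1 is near these shares. Of the 42 differences of the 7 genes, 31 lay within 1 standard error of 0. The median difference of the 7 genes was 0.05 in LD light minus LD dark, beside 0.01 over all probe sets, and 0.01 in DD subjective day minus DD subjective night, beside 0.00.

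Groups that did not overlap were counted too. In LD light against LD dark this held for 1 of the 7 genes, Lsp2, and for 12.9% of all probe sets. In DD subjective day against LD light it held for Lsp2, lower in DD, and Fbp1, higher in DD, and for 13.6% of all. In DD subjective day against DD subjective night (14.2% of all) and in DD subjective night against LD dark (14.1% of all) it held for 0 of the 7. Counts of 0 to 2 among 7 genes are close to what these shares give.

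Other genes of fat body metabolism were rarely called. Of 30 measured genes of lipid and sugar metabolism and secretion, 1 passed in any comparison. It was mag, a lipase gene known from the gut, which was lower in DD subjective day than in DD subjective night, with 2.56, 2.65 and 2.53 against 2.99, 3.04 and 2.83, a difference of -0.37 (SE 0.0814, limma adjusted p = 0.0364). Its mean, 2.66, was under each array's lower quartile, and the midgut list moved the same way, with 14 of 21 genes called lower. With the body-tissue score as a covariate, 0 probe sets were called in that contrast, against 194 without it. The score itself was -0.50 ± 0.66 in DD subjective day and 1.19 ± 0.23 in DD subjective night. That fit can therefore hardly tell the score from the group. The part of gut tissue in the mag values was not tested. In LD light minus LD dark the smallest p was that of tobi, with 5.97, 6.30 and 5.70 in LD light against 5.63, 5.30 and 5.74 in LD dark, a difference of 0.44 (SE 0.139, limma adjusted p = 0.57). Pepck1, a gluconeogenesis gene, differed by -0.47 (SE 0.187, limma adjusted p = 0.645). FASN1 was at -0.53 (SE 0.165, limma adjusted p = 0.455) in DD subjective day minus LD light. Of 4 measured genes on a list of hexamerin relatives and larval fat body proteins, which include the prophenoloxidase gene PPO3 and Fbp2, 0 were called in any comparison.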

How the data were processed

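The deposited table holds log2 values made by the authors with RMA, per the submitters' processing notes; which version was used, and on which arrays together, is not given in the sources used here. Of 14010 probe sets, 44 controls were left out. The platform annotation gave 1 symbol to 12443 of the rest, several to 327 and none to 1196. None of the 66 pairs of arrays was identical, and their number limits the precision.

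Means of the 4 groups (8 residual degrees of freedom) and daily curves with a period of 24 h (6 residual degrees of freedom) were fitted to all 12 arrays with limma 3.58.1 in R 4.3.3, two-sided, with Benjamini-Hochberg adjustment over 13966 probe sets and a threshold of 0.05. The spread behind each p-value is that among these 12 arrays, with 1 array per time. Correlations used 100000 two-sided permutations over all 12 arrays, also where day means were removed (numpy 2.4.6). The relation to the GAPDH control was chosen with the values known. The scripts were tested on simulated data.

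Members and gene lists were chosen with earlier results of these data known. The rule for names allowed all members, list genes past the threshold or with the 2 smallest p, and the 5 genes most like a member (SD at least 0.2); not every list gene it allowed is named, and midgut, male and muscle genes are given as counts. Member differences beyond their standard error are given singly, as are those of Lsp2 within it, a choice made after the data were seen. Locus tags and neighbours come from the RefSeq gene table. Alternatives covered normalization, filter, prior, weights, covariates, blocks and arrays left out.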

Additional observations from a re-analysis of the deposited data

How the results depend on the processing

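The LD light minus LD dark contrast called 0 of the 7 genes as fitted. It called 1, Lsp2, with each array centred on its median (adjusted p = 0.0471), with a trended robust prior (0.0132) and with array weights (0.0209). These were 3 of 9 such settings, over which the Lsp2 difference was 0.47 to 0.67 and the adjusted p reached 0.921. Leaving out 1 array called Lsp2 in 1 of 12 fits, with adjusted p up to 0.398. The LD harmonic called 1, Lsp2, but 0 after quantile normalization (adjusted p = 0.0632), with a linear trend over collection hours (0.23), with the body-tissue score (0.0889), and from the LD arrays alone (0.313) or without the 3 DD subjective night arrays (0.313), the last chosen after seeing the data; the DD curve then has no spare array, so both rest on the LD arrays. Leaving out 1 array gave 0 to 1. The amplitude stayed between 0.38 and 0.57 in all these. The other 7 counts stayed at 0 in every setting run. Over all probe sets, calls as fitted and their range over the other settings were 4 (0 to 9) in LD light minus LD dark, 194 (0 to 254) in DD subjective day minus DD subjective night, 0 (0 to 6) in DD subjective day minus LD light, 28 (0 to 184) in DD subjective night minus LD dark, 3 (0 to 83) in DD minus LD, 9 (0 to 38) in the LD harmonic, 109 (0 to 222) in the DD harmonic, 0 (0 to 6) in the difference of the day-night differences and 0 (0 to 119) in that of the harmonics. Signs turned for Lsp2 in DD subjective day minus LD light with the trend (0.048), and for Fbp1 in DD subjective day minus DD subjective night with the trend (-0.008) and the body-tissue score (-0.032); the trend shares its direction with the order of the days, and otherwise the cause was not tested. Of the 31 differences within 1 standard error of 0, 23 changed sign in some setting. Quantile normalization makes the yolk values identical on all arrays, because their ranks never change. No member had a second probe set, so that alternative was not run. Removing day means changed no call of a gene pair, and blocking on the hour of collection, which pairs each DD array with the LD array of the same hour, changed no call of a member in the 3 contrasts between the days.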
